A study of Mus musculus with 14 samples.

Results

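A group of 9 genes that mark projection neurons of the deep cortical layers were followed in neuronal nuclei from the medial entorhinal cortex (MEC) of aged and young mice. They were chosen by name, as Etv1, Tle4, Fezf2, Bcl11b, Nr4a2, Foxp2, Tbr1, Nxph4 and Cplx3, and make up 9 of the 27781 named gene rows of the deposited table. SmartSeq libraries came from 7 aged and 7 young samples and were set beside electrophysiological recordings by the study. The labels call the groups aged and young and give neither the age in months nor the strain or sex of the mice. Whether each sample is a different animal is not stated, so the p-values reflect the spread between these samples, which may be technical. Values are the authors' normalized values per gene. The read depth behind them is unknown.

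Deep layer neurons carry much of the output of the cortex. Fezf2, Bcl11b and Tbr1 encode transcription factors that set the fate of these cells during development: Fezf2 acts above Bcl11b in layer 5 neurons that project below the cortex, and Tbr1 favours layer 6 neurons that project to the thalamus. In the MEC, Etv1 and Bcl11b mark separate sublayers of layer 5, an upper one with long-range output and a lower one that contacts local cells, while Nr4a2, Nxph4 and Cplx3 mark the deepest cortical neurons, those of layer 6b.

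One library went against its labelled tissue. In aged library 3, all 13 genes of a list of midbrain dopamine neuron markers lay above every other library, with a summed value of 101514 against 1811 to 6261 in the other 13 libraries. Th, the rate-limiting enzyme of dopamine synthesis, stood at 22469 in that library against at most 173 in the others. Emx1, a transcription factor of the cortical excitatory lineage, stood at 7.15 against 40.8 to 561. It is 1 of 8 glutamatergic markers, of which 5 were below all other libraries there, 2 within their range and 1 above. The 1 above was Slc17a6, at 6241 against at most 1956. The dopamine neuron list was chosen after these values were seen. Of the 9 deep layer genes, Etv1, Fezf2, Bcl11b, Tbr1 and Cplx3 were lowest of all libraries there and Foxp2 and Nxph4 highest, where 10.8% of all genes were below and 14.1% above the other 13 libraries. The members' age and set differences, counts of calls and correlations are therefore given with and without aged library 3.

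The libraries also fell into 2 sets that the labels do not name. Xist, a long RNA that shuts down one of the X chromosomes in females, was 7378 to 25459 in 5 aged and 2 young libraries, called Xist-positive, and 0 to 5.13 in 2 aged and 5 young libraries, called Xist-negative. Xist-positive libraries had 21152 to 22812 genes above 0, against 25263 to 25615 in Xist-negative ones. The sets hold unequal numbers of aged and young libraries, so age differences are also given with the set as a term.

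**Figure D1:**
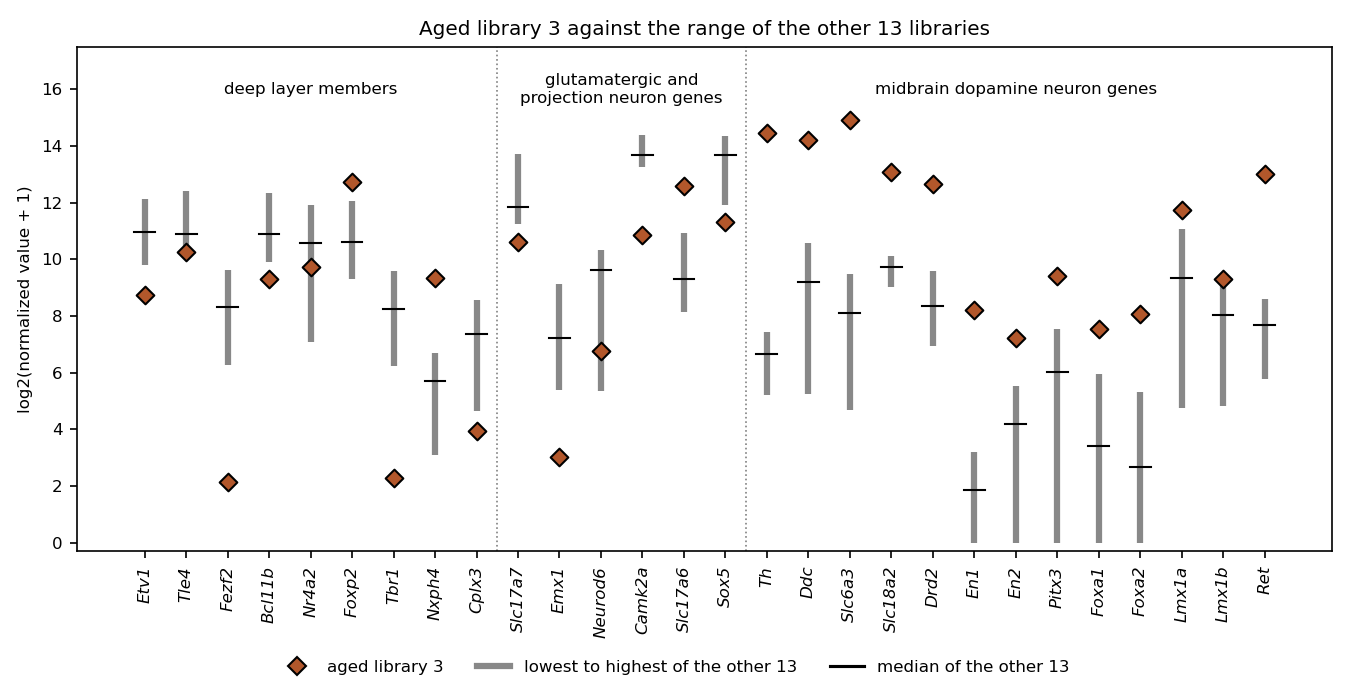
Aged library 3 against the other 13 libraries. The y axis is log2(normalized value + 1); diamonds are aged library 3, grey bars run from the lowest to the highest of the other 13 libraries and black ticks are their median. The diamond lies below the bar in 5 of the 9 deep layer genes, above it in 2, and above it in all 13 dopamine neuron genes.

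No deep layer gene differed between aged and young libraries in a fit with age as the only term, once p-values were adjusted over all genes. Nxph4, which encodes a secreted ligand of neurexins, had the largest difference of the 9, with 5 of the 7 aged libraries above every young one. The ranges of aged and young libraries overlapped in all 9 genes, with and without aged library 3, as they did in all but 0.212% and 0.289% of all genes. In bulk nuclei, fewer nuclei of a type and less RNA in each cannot be told apart.

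The fit was limma on log2(value + 1), run over the 24554 genes that reached 1 in 7 or more libraries, and all 9 members passed that filter. Of the 9, 0 were called at an adjusted p under 0.05 and 1, Nxph4, had an unadjusted p under 0.05. Over all genes limma called 0.00407% (1 gene), and 24.1% had an unadjusted p under 0.05. When aged library 3 was left out, no member had an unadjusted p under 0.05, against 16.6% of all genes, and 0% of all genes were called. With the library set as a term 0 members were called (0.00815% of all genes) and 1 had an unadjusted p under 0.05 (13.1% of all genes). With both changes, the set as a term and aged library 3 left out, 0 members were called (0% of all genes) and 1 had an unadjusted p under 0.05 (13.1%). With libraries weighted by how closely they followed the fit, Bcl11b was called as higher and Foxp2 as lower in aged libraries, where 53.1% of all genes were called. By the authors' deposited table, none of the 9 (a count of 0) had an adjusted p under 0.05, against 2.41% of the 21253 genes with one.

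With age as the only term, the sign of the members' median changed with aged library 3. Over all libraries 3 of 9 differences were positive, and the median was -0.40 on the log2 scale against -0.25 for all genes. Without aged library 3, 5 of 9 were positive and the median was 0.14, against -0.24 for all genes. With the set as a term the median stayed negative: 1 of 9 was positive and the median was -0.36, against -0.16 for all genes, and with both changes 2 of 9 were positive and the median was -0.24, against -0.15 for all genes.

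**Figure D2:**
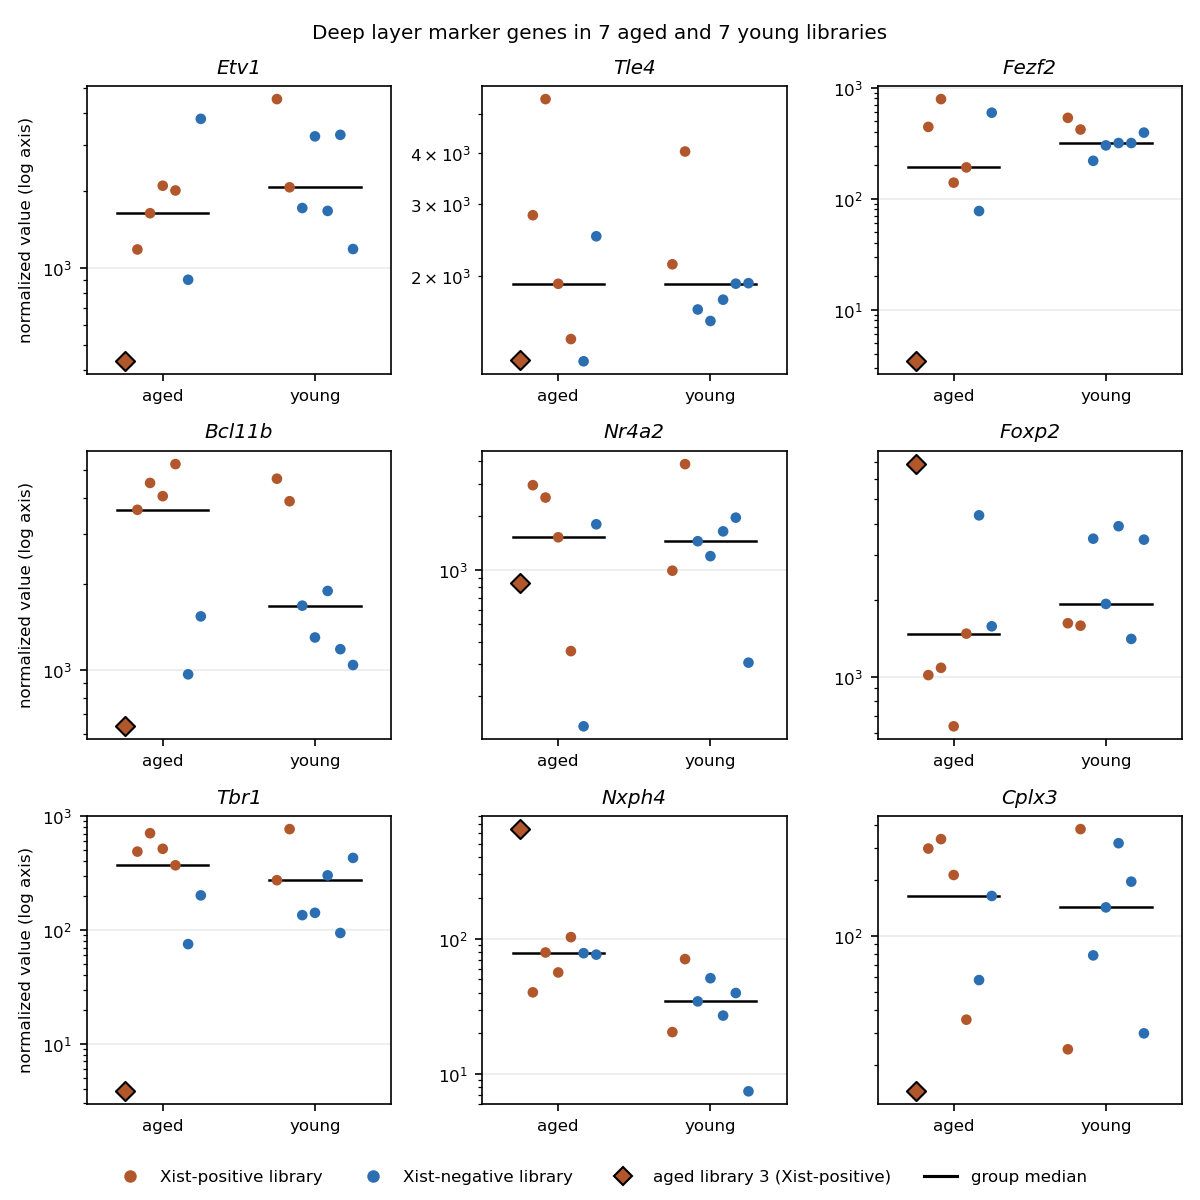
Normalized values of the 9 deep layer genes in every library (log y axis), aged libraries left and young right; points are libraries, coloured by library set, the outlined diamond is aged library 3 and lines are group medians. The groups overlap in each panel, Nxph4 has 7 of 7 aged libraries above the young median, and Bcl11b splits by library set once the diamond is left aside.

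Fezf2, a zinc-finger factor that specifies subcerebral projection neurons (chromosome 14, 12342094 to 12348189, minus strand, mm10, GENCODE M21), had a lowest, median and highest value of 3.43, 191 and 788 in aged libraries, against 219, 317 and 535 in young ones. The aged libraries lay on both sides of the young range, with 4 below it and 2 above it. Fezf2 averaged 320 ± 294 in the aged and 358 ± 102 in the young libraries (SD, n = 7 each), and the difference in mean log2(value + 1) was -1.18 (SE 0.87, limma adjusted p = 0.373). Without aged library 3, which held the 3.43, the difference was -0.33 (SE 0.48, limma adjusted p = 0.691). With the set as a term it was -1.17, and -0.55 when that library was also left out. In aged library 12, the next lowest, Fezf2 stood at 77.4.

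Tbr1, a T-box factor of layer 6 corticothalamic neurons (chromosome 2, 61802930 to 61814114, plus strand), had a lowest, median and highest value of 3.83, 370 and 707 in aged libraries, against 94.1, 273 and 768 in young ones. Aged libraries 3 and 12 were the lowest of all 14, and the other 5 aged libraries lay within the young range. Its log2 difference was -0.48 (SE 0.92, limma adjusted p = 0.753) in the full set of libraries and turned to 0.38 (SE 0.56, limma adjusted p = 0.695) without aged library 3. With the set as a term it was negative, at -0.90 with that library and -0.24 without it.

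Bcl11b, a zinc-finger factor of layer 5 neurons that interneurons also express (chromosome 12, 107910403 to 108003602, minus strand), had a lowest, median and highest value of 636, 3636 and 5253 in aged libraries, against 1042, 1681 and 4671 in young ones. The aged median was the higher, but each group held both high and low libraries. Its log2 difference of 0.26 (SE 0.49, limma adjusted p = 0.749) was 0.57 without aged library 3 and turned to -0.36 with the set as a term and to -0.08 with both changes.

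The promoters of these 3 genes are shown because Tbr1 varied with Fezf2 and with Bcl11b across libraries, as described further on. The sequences are RefSeq's for GRCm38.p6, from 250 bases before to 50 bases after the start that RefSeq gives the gene. They are read 5′ to 3′ on the gene's strand. The Fezf2 and Tbr1 windows lie wholly inside the GENCODE spans given above, so they are not at the outer start of those spans. The Bcl11b window crosses the edge of its span. Capitals mark a match to the TATA box sequence TATAAA on the strand opposite the gene's, so it reads TTTATA here. Whether it acts as a TATA box was not tested. TATAAA was the motif found among 5 searched on both strands. The 5 were TATAAA, the E-box CACGTG, AAAGGTCA (a site of the Nr4a receptors), AGGTGTGA (a T-box half-site) and CCGGAAGT (an ETS site).
Fezf2 promoter, chr14:12345816-12346115, minus strand: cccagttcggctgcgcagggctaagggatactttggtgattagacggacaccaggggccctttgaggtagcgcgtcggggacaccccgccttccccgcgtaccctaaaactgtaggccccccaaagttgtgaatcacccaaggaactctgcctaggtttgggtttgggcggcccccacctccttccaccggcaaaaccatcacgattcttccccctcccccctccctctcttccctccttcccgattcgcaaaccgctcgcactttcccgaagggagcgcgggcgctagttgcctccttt
Tbr1 promoter, chr2:61804203-61804502, plus strand: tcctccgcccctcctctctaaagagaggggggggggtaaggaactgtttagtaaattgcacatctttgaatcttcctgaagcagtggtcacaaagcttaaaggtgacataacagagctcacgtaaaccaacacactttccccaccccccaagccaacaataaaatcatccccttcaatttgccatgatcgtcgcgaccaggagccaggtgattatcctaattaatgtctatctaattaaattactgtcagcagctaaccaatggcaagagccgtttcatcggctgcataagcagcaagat
Bcl11b promoter, chr12:108003365-108003664, minus strand: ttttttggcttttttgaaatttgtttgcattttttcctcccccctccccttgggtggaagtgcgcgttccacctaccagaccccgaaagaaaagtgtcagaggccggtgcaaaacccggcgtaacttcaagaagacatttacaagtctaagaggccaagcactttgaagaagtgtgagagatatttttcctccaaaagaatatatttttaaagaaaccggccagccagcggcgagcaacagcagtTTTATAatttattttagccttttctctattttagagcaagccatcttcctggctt
TATAAA was found in the Bcl11b window and in 13.6% of the 32851 promoters of the table, and none of the other 4 motifs was found in these 3 windows. GC content was 61.3% for Fezf2, 46% for Tbr1 and 43% for Bcl11b, against a median of 52.7% over all promoters.

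Etv1, an ETS factor of layer 5 neurons (chromosome 12, 38779380 to 38870484, plus strand), had a lowest, median and highest value of 433, 1633 and 3808 in aged libraries, against 1184, 2061 and 4545 in young ones. The aged libraries 3, 4 and 12 were below every young one and none was above all of them. It averaged 1721 ± 1096 in the aged and 2532 ± 1199 in the young libraries (SD, n = 7 each), and the difference in mean log2(value + 1) was -0.69 (SE 0.41, limma adjusted p = 0.279). The difference was negative in all 41 settings tried and ran from -1.25 to -0.15, and it was -0.40 (SE 0.35, limma adjusted p = 0.493) without aged library 3. With the set as a term it was -0.70, and -0.49 with both changes. In an exact two-sided permutation test p was 0.163.

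Tle4, a Groucho-type co-repressor of layer 6 corticothalamic neurons (chromosome 19, 14448150 to 14598051, minus strand), had a lowest, median and highest value of 1234, 1912 and 5427 in aged libraries, against 1549, 1913 and 4036 in young ones. The medians were nearly the same, and 1 library in each group, aged 5 and young 3, stood well above the rest. The log2 difference was 0.02 (limma SE 0.31, adjusted p = 0.972) over all libraries and 0.14 without aged library 3, and turned to -0.21 with the set as a term and to -0.10 with both changes.

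Foxp2, a forkhead factor of layer 6 neurons (chromosome 6, 14901349 to 15441977, plus strand, overlapping the gene model Gm25470 on the same strand), had a lowest, median and highest value of 639, 1478 and 6862 in aged libraries, against 1409, 1934 and 3910 in young ones. Aged library 3 held the highest value and aged libraries 4, 5 and 6 the lowest. The means were 2425 ± 2304 in aged and 2489 ± 1081 in the young libraries (SD, n = 7 each), and the difference in log2 was -0.40 (SE 0.46, limma adjusted p = 0.586). It was -0.73 (SE 0.39, limma adjusted p = 0.318) without aged library 3, but -0.07 with the set as a term and -0.33 with both changes.

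Nr4a2, an orphan nuclear receptor of layer 6b and subplate neurons that midbrain dopamine neurons also need (chromosome 2, 57106830 to 57124003, minus strand), had a lowest, median and highest value of 136, 1519 and 2954 in aged libraries, against 306, 1445 and 3866 in young ones. The lowest was aged library 12, while aged library 3, at 849, was within the young range. The log2 difference was -0.42 (limma SE 0.65, adjusted p = 0.693) over all libraries, -0.39 without aged library 3, -0.89 with the set as a term and -0.83 with both changes.

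Cplx3, a complexin that binds the vesicle fusion machinery (chromosome 9, 57599992 to 57606281, minus strand), had a lowest, median and highest value of 14.5, 165 and 334 in aged libraries, against 24.4, 143 and 378 in young ones. Apart from aged library 3, the lowest of all, every aged library lay within the young range. The log2 difference was -0.12 (SE 0.80, limma adjusted p = 0.932) and turned to 0.33 without aged library 3. With the set as a term it was -0.08, and 0.24 with both changes.

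The promoters of Nr4a2 and Cplx3 are shown for the same reason as those above, since these genes varied together across libraries. Capitals mark TATAAA in the Nr4a2 window and CACGTG in the Cplx3 window, from the same 5 motifs. The match in the Nr4a2 window is again on the opposite strand and reads TTTATA.
Nr4a2 promoter, chr2:57123954-57124253, minus strand: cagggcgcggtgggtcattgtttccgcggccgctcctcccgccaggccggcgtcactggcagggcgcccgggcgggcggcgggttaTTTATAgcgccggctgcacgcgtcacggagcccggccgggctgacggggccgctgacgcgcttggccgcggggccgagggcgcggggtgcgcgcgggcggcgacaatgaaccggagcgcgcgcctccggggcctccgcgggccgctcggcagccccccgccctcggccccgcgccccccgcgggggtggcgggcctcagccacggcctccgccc
Cplx3 promoter, chr9:57606232-57606531, minus strand: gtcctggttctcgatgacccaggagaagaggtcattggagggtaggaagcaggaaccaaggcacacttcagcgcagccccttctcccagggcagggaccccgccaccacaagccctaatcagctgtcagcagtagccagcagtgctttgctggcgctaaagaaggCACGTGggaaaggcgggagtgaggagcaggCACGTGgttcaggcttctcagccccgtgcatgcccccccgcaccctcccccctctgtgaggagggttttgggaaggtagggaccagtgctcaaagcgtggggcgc
The Cplx3 window held 2 copies of CACGTG, which was present in 7.15% of all promoters, and the Nr4a2 window 1 copy of TATAAA. AAAGGTCA, in 1.51% of all promoters, was found in neither window. AGGTGTGA was present in 1.28% and CCGGAAGT in 3.89% of all promoters, and neither was in these 2 windows. The Nr4a2 window had a GC content of 81.7%, above that of 99.4% of the promoters, and the Cplx3 window 62.7%. RefSeq windows were matched for 7 of the 9 members, with Foxp2 and Nxph4 named only.

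Nxph4 (chromosome 10, 127525473 to 127534559, minus strand), a marker of layer 6b, was 643, 40.2, 79.1, 56.3, 103, 78.1 and 76.3 in aged libraries 3, 4, 5, 6, 7, 12 and 13, against 20.5, 70.7, 34.4, 51.1, 27.1, 39.7 and 7.48 in young libraries 2, 3, 11, 16, 17, 18 and 19. All 7 aged libraries were above the young median and 5 were above every young library, while aged 4 and 6 lay below young 3. It averaged 154 ± 217 in aged and 35.8 ± 20.7 in the young libraries (SD, n = 7 each), and 72.1 ± 21.5 in the 6 aged libraries other than 3 (SD).

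The log2 difference of Nxph4 was 1.64 (SE 0.65, limma adjusted p = 0.184), so it did not pass over all genes. It was 1.18 (SE 0.56, limma adjusted p = 0.301) without aged library 3, 1.44 (SE 0.66, limma adjusted p = 0.367) with the set as a term and 1.13 (SE 0.53, limma adjusted p = 0.381) with both changes. Taken alone, in exact two-sided permutation tests of this gene, p was 0.00583 over all libraries and 0.0157 without aged library 3. With permutations kept within the library sets, the exact p was 0.0635 over all libraries and 0.0508 without aged library 3. The difference was positive in all 40 settings in which the gene was kept, from 0.76 to 1.84. The authors' deposited table gives Nxph4 a fold change of 1.65 on the log2 scale, with an SE of 0.68 and an adjusted p of 0.206. For the other 8 members the exact p ran from 0.163 to 0.953 over all libraries and from 0.122 to 0.689 without aged library 3.

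Marker sums of several cell types, glial and neuronal, also reached higher values in aged libraries. The summed value of 7 astrocyte markers ran from 13565 to 32288 in aged libraries, against 11039 to 22949 in young ones. That of 7 oligodendrocyte markers ran from 4619 to 17390 in aged libraries, against 3415 to 9356 in young ones. Interneuron markers reached 47880 in aged against 37419 in young libraries, but their aged median (28783 against 30170) and lowest value (18445 against 24070) were the lower. Microglial markers reached 4455 against 3409, though their aged median was the lower, at 1671 against 1997. Hippocampal and endothelial sums reached higher values in young libraries, at 6933 against 4773 and 2360 against 1944. Without aged library 3 the astrocyte range of the aged libraries was the same and the oligodendrocyte range was 4619 to 16611. None of these markers was at 0 in every library of either group, and their part in the Nxph4 values was not tested. The mean of Nxph4 was higher in aged libraries of both sets, at 184 ± 258 (SD, n = 5; 69.6 ± 27.2, n = 4, without aged library 3) against 45.6 ± 35.5 (SD, n = 2) in young Xist-positive libraries, and at 77.2 ± 1.33 (SD, n = 2) in aged against 32.0 ± 16.2 (SD, n = 5) in young Xist-negative libraries. These within-set differences did not pass the test.

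**Figure D3:**
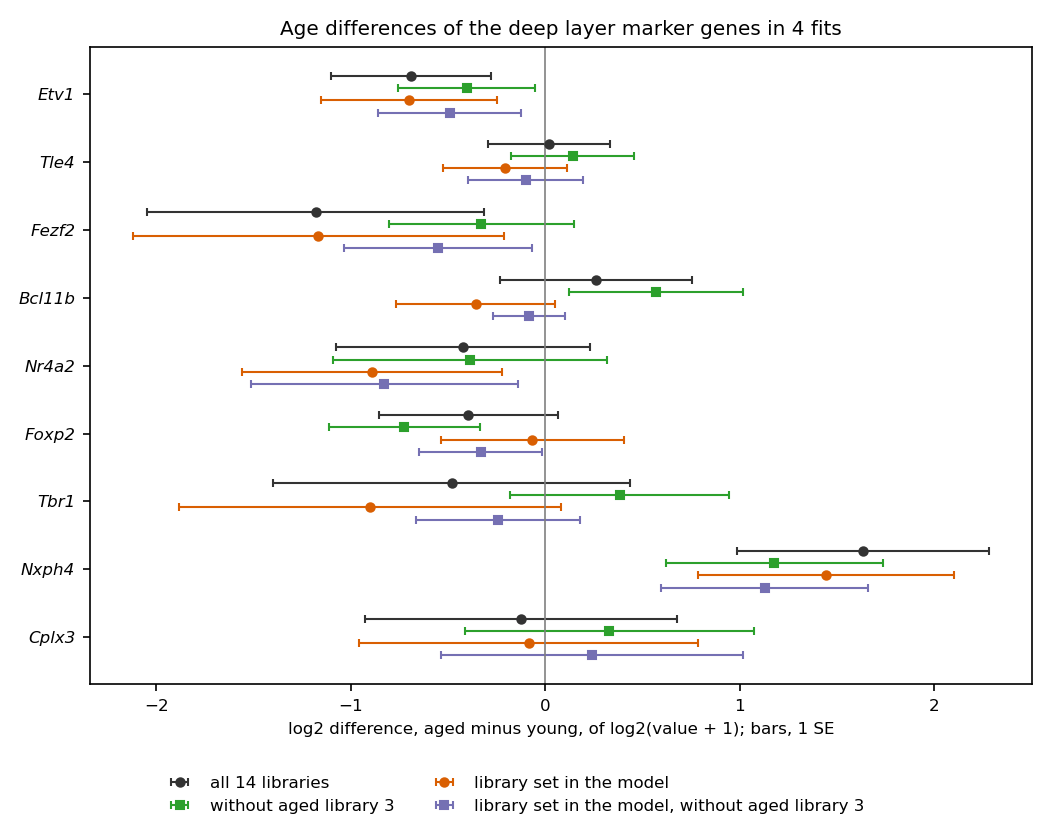
Age differences of the 9 deep layer genes, as log2(value + 1) in aged minus young libraries, in 4 limma fits; points are estimates and bars 1 SE. Nxph4 is the gene with positive values well away from 0 in the 4 fits (1.13 to 1.64), Etv1, Fezf2, Nr4a2 and Foxp2 are negative in each, and Tbr1, Bcl11b, Tle4 and Cplx3 change sign.

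Some members differed between the library sets, but in no larger share than all genes did. Over all libraries 1 of 9 was called, against 52% of all genes, and without aged library 3 it was 3 of 9, against 54.5%. Bcl11b was higher in Xist-positive libraries, Tbr1 was also higher and Foxp2 lower once aged library 3 was left out. Neither the sex of the mice nor a processing batch is in the labels, and the set cannot be told apart from whatever else these libraries share.

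Bcl11b was 636, 3636, 4514, 4058 and 5253 in the aged Xist-positive libraries 3, 4, 5, 6 and 7 and 4671 and 3895 in the young ones, 2 and 3. In the Xist-negative libraries it was 967 and 1542 in aged 12 and 13 and 1681, 1301, 1892, 1184 and 1042 in young 11, 16, 17, 18 and 19. With aged library 3 left out, every Xist-positive library was above every Xist-negative one, as for 31.4% of all genes. With that library the ranges overlapped in all 9 members, and 27.9% of all genes did not overlap. With age in the model the log2 difference between the sets was 1.45 (SE 0.41, limma adjusted p = 0.00728) and became 1.72 (SE 0.18, limma adjusted p = 2.75e-06) without aged library 3. Within a set the age groups were close: without aged library 3 Bcl11b averaged 4365 ± 692 (SD, n = 4) in aged and 4283 ± 548 (SD, n = 2) in young Xist-positive libraries, and 1254 ± 406 (SD, n = 2) in aged and 1420 ± 355 (SD, n = 5) in young Xist-negative ones.

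Between the sets, 1 of 9 members was called over all libraries, where 52% of all genes were called, and 3 of 9 without aged library 3, where 54.5% were. Neither share of members was above that of all genes. Without aged library 3, Tbr1 ran from 273 to 768 in Xist-positive and from 75.1 to 429 in Xist-negative libraries, with 1.64 as the log2 difference (SE 0.42, limma adjusted p = 0.00373). Its ranges overlapped, and over all libraries the difference was 0.99 (SE 0.98, limma adjusted p = 0.419).

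Foxp2 went the other way, at 639 to 1624 in Xist-positive libraries other than aged 3 and at 1409 to 4315 in Xist-negative ones, with -1.03 as the log2 difference (SE 0.32, limma adjusted p = 0.0116). Over all libraries it was -0.77 (SE 0.47, limma adjusted p = 0.186). Summed cell type markers differed in range between the sets as well. The 7 microglial markers summed to 711 to 1846 in Xist-positive and to 1512 to 4455 in Xist-negative libraries. The 8 glutamatergic markers summed to 17990 to 44398 in Xist-positive and to 24696 to 33022 in Xist-negative libraries, where the 17990 was aged library 3. Between the sets 1 of these 8 was called higher in Xist-positive libraries and 0 lower (52% of all genes called). Without aged library 3 it was 4 higher and 0 lower (54.5% of all genes called). No marker of either list was at 0 in all libraries, and their part in the set differences was not tested.

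The age difference itself was not shown to depend on the set. In a limma fit with age, set and their product, 0 of 9 members had an adjusted p under 0.05 for the product (0% of all genes) and 0 had an unadjusted p under 0.05 (3.62% of all genes). Leaving out aged library 3, the member counts were also 0 (0% and 4.54% of all genes).

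**Figure D4:**
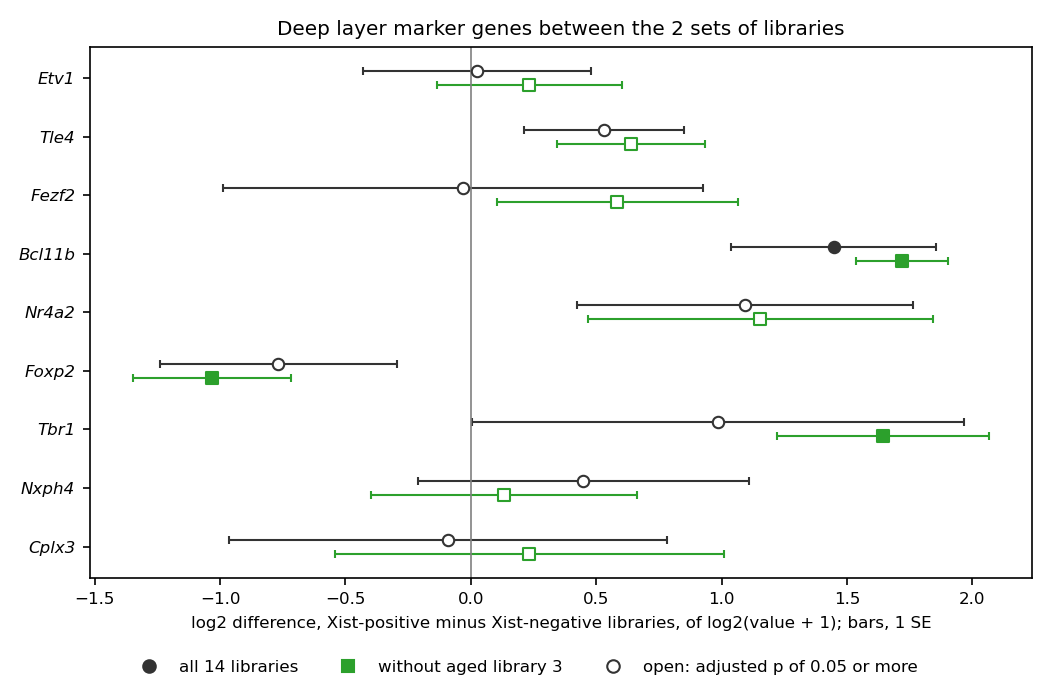
Difference of the 9 deep layer genes between Xist-positive and Xist-negative libraries, with age in the model, on the log2(value + 1) scale; points are limma estimates, bars 1 SE, filled points passed an adjusted p under 0.05. Bcl11b is filled in both fits (1.45 and 1.72), Tbr1 and Foxp2 without aged library 3 alone.

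The members differed widely in how much they varied between libraries of one kind. After age and set were fitted, the residual SD on the log2 scale was 1.96 for Tbr1, 1.91 for Fezf2 and 1.70 for Cplx3, against a median of 0.52 over the 18644 genes with a mean of 50 or more. With aged library 3 left out it was 0.79 for Tbr1 and 0.93 for Fezf2, against a median of 0.48. Nr4a2 and Cplx3 stayed spread without that library, at 1.40 and 1.51, above 94.5% and 96.4% of these genes. Bcl11b was then the steadiest member, at 0.31, above 23.5% of them.

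Several members varied together across libraries. Pearson's r of log2(value + 1) over the 14 libraries was 0.86 for Fezf2 and Tbr1, 0.76 for Bcl11b and Tbr1, and 0.71 for Nr4a2 and Cplx3. Without aged library 3 (13 libraries) these became 0.47, 0.73 and 0.78. Tle4 followed Fezf2 at 0.63 and 0.75, and Nr4a2 at 0.68 and 0.70, with and without that library. Foxp2 ran against Bcl11b at -0.75 and -0.66. Etv1 and Bcl11b, the markers of the 2 sublayers of layer 5, had an r of 0.42 over all libraries and 0.15 without aged library 3.

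Part of this followed the library sets. With values centred within each set and aged library 3 left out, r was 0.12 for Bcl11b and Tbr1 and 0.09 for Bcl11b and Foxp2. Other pairs kept their r in that setting, at 0.79 for Nr4a2 and Cplx3 and 0.77 for Tle4 and Fezf2. It was 0.66 for Tle4 and Nr4a2, 0.48 for Fezf2 and Tbr1 and 0.39 for Etv1 and Bcl11b. These correlations describe libraries that share age group, set and preparation, and no test was made of them.

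**Figure D5:**
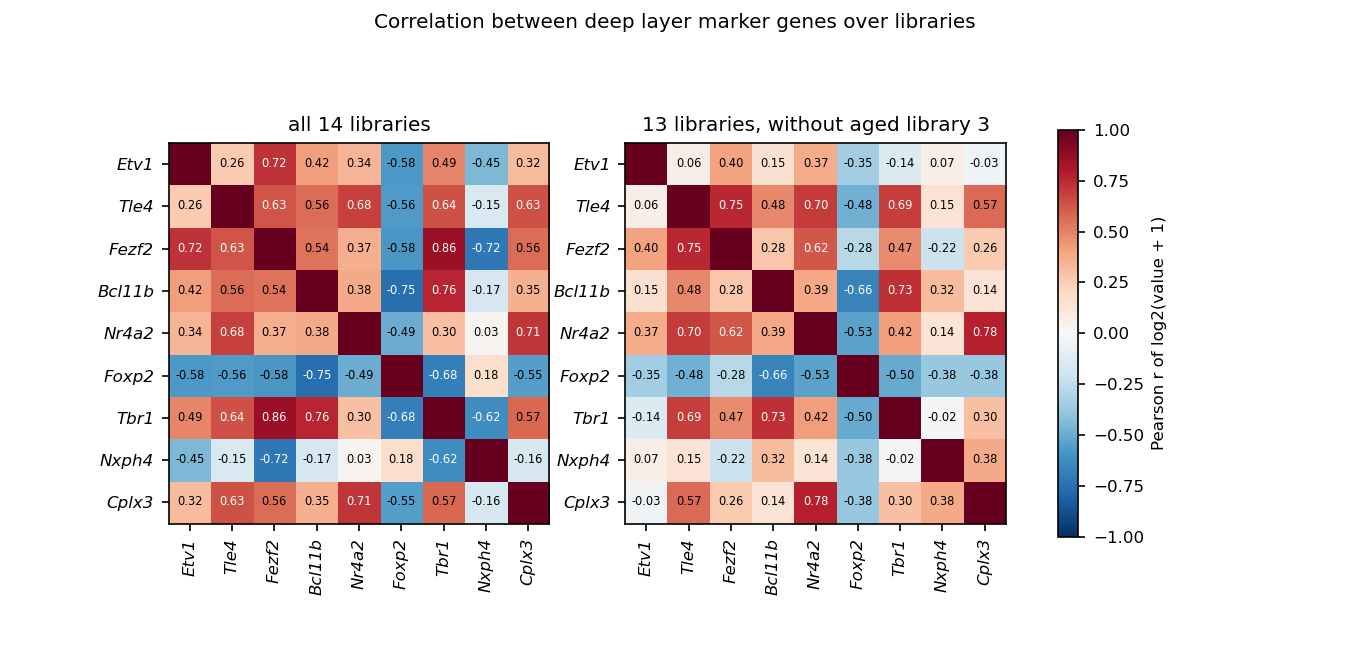
Pearson's r of log2(value + 1) between each pair of the 9 deep layer genes, over all 14 libraries (left) and over 13 without aged library 3 (right); red is positive and blue negative. Fezf2 and Tbr1 have an r of 0.86 on the left and 0.47 on the right, while Nr4a2 and Cplx3 have 0.71 and 0.78.

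Among 13956 other genes with a mean of 100 or more, the gene most like Tbr1 over the 14 libraries was Ipcef1 (r = 0.95). Without aged library 3 it was Trnp1 (r = 0.95). For Fezf2 it was Psrc1 (r = 0.96) and then, without that library, Sulf2 (r = 0.90). For Bcl11b it was Galc (r = 0.96) and Fam71e1 (r = 0.97) in the same order. The gene most like Nxph4 was Nrsn2 with and without aged library 3 (r = 0.96 and 0.91), and that most like Etv1 was Fam150b in both (r = 0.91 and 0.84). The others changed: Ier2 and Stard5 for Tle4, Ankrd27 and Mpped1 for Nr4a2, Lrrc75b and Palld for Foxp2, Actn3 and Trib2 for Cplx3, all with an r of 0.86 to 0.95.

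Levels of different genes were set side by side per kilobase of exon, taken as the union of the exons of all annotated transcripts. That union was longest for Foxp2 (16346 bases, 20 transcripts) and Etv1 (13296 bases, 13 transcripts), so the order depends on this choice of length. Over all 7 aged libraries the medians of the normalized value per kilobase ran in the order Bcl11b (448), Nr4a2 (374), Tle4 (335), Etv1 (123), Foxp2 (90.4), Tbr1 (67.4), Fezf2 (62.8), Cplx3 (55.7) and Nxph4 (46.6). The young medians ran in the order Nr4a2 (356), Tle4 (336), Bcl11b (207), Etv1 (155), Foxp2 (118), Fezf2 (104), Tbr1 (49.8), Cplx3 (48.4) and Nxph4 (20.6). In both age groups the ranges of neighbours in these orders overlapped. The orders take no account of the library set. Before division by length, Bcl11b had a median of 4058 in Xist-positive and 1301 in Xist-negative libraries. The values come from nuclei, and no source used here says how far unspliced RNA was counted.

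The other genes of deep layer identity gave no call by age either. Of 11 other layer 5, 9 other layer 6 and 8 other layer 6b markers, limma called 0 over all libraries, and 0, 0 and 2 (both higher) had an unadjusted p under 0.05, against 24.1% of all genes. Medians of the log2 difference were 0.04, 0.09 and 0.04 in that order, against -0.25 for all genes. They were 0.10, 0.01 and 0.36 without aged library 3 (all genes -0.24), -0.08, -0.23 and 0.42 with the set as a term (all genes -0.16), and -0.01, -0.14 and 0.59 with both changes (all genes -0.15). Of the 8 other markers of layer 6b, where Nxph4, Nr4a2 and Cplx3 belong, 4 were higher and 4 lower over all libraries, from -1.04 to 1.44. With both changes 6 were higher and 2 lower. Nr4a2 and Cplx3 themselves were negative over all libraries, at -0.42 and -0.12. The 2 of the 8 with the smallest p were both higher. Tmem163, a zinc transporter, had a difference in log2 of 1.44 (limma adjusted p = 0.126), and of 0.97 with both changes. Inpp4b, a phosphoinositide phosphatase, had 0.79 and 0.71. In aged library 3 Tmem163 stood at 9617, above the 862 to 4288 of the other libraries. Among the other layer 5 markers, Npr3 and Bcl6 had the smallest p, with log2 differences of -1.004 and -0.590 over all libraries. Among the other layer 6 markers these were Osr1 and Ntsr1, at -1.247 and 0.399. With both changes Npr3 and Bcl6 were at -0.732 and -0.107, and Osr1 and Ntsr1 at -0.581 and 0.164.

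Of 13 genes listed around the identity of neurons that project out of the cortex, 0 were called. Of these 13, 2, both lower, had an unadjusted p under 0.05, against 24.1% of all genes. Their median was -0.24, and -0.17 without aged library 3, -0.54 with the set as a term and -0.47 with both changes. Sox5, which controls the timing of deep layer neuron production, averaged 9312 ± 4706 in the aged and 16762 ± 4651 in the young libraries (SD, n = 7 each), and the difference in mean log2(value + 1) was -1.02 (limma adjusted p = 0.182) over the 14 libraries. It was -0.75 without aged library 3, -1.23 with the set as a term and -1.02 with both changes (limma adjusted p = 0.300, 0.247 and 0.167). Hivep2, a zinc-finger factor, had -0.58, -0.46, -0.75 and -0.64 in those 4 fits. Of 21 close relatives of the members 0 were called, with 2 higher and 3 lower at an unadjusted p under 0.05, against 24.1% of all genes. Their median was -0.38, and -0.25 without aged library 3. Aes, a Groucho relative of Tle4, had a log2 difference of 1.21 and Cplx4, a complexin, of -3.47 (limma adjusted p = 0.182 each), and without aged library 3 these were 1.10 and -3.15. Cplx4 was a low gene, at 17.6 ± 26.5 in the aged and 76.5 ± 36.6 in the young libraries (SD, n = 7 each).

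For comparison, 0 of 10 superficial layer markers were called, with 1 higher and 1 lower at an unadjusted p under 0.05, against 24.1% of all genes, and a median of 0.11, or 0.24 without aged library 3. Of the cell type lists, limma called 0 of 8 glutamatergic, 12 interneuron, 7 hippocampal, 7 astrocyte, 7 oligodendrocyte, 7 microglial, 5 endothelial and 13 dopamine neuron markers, with medians of 0.05, 0.13, -0.61, 0.22, 0.55, 0.14, -0.34 and -0.11 in that order. Without aged library 3 the medians were 0.45, 0.08, -0.20, 0.39, 0.14, 0.03, -0.46 and -1.14. At an unadjusted p under 0.05 these lists held 1, 1, 0, 2, 1, 0, 0 and 0 higher and 0, 0, 2, 0, 0, 0, 1 and 1 lower genes, where the share of all genes was again 24.1%. None of the lists had a called gene in the other 3 age fits.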

How the data were processed

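SmartSeq libraries of neuronal nuclei were compared between 7 aged and 7 young samples, grouped by the labels. The submitters' processing notes list STAR, kallisto, DESeq2 and mm10, and no source used here gives their versions, roles, annotation, filters or strand handling. The library columns hold the authors' deposited normalized signal per gene, which is not a read count. No low value was shared by more than 17 genes of a library, so the values could not be turned back into reads and the depth is not known. The authors also deposited a log2 fold change with its standard error, a test score, a p-value and an adjusted p-value, used here only as their comparison. The row without a name (0.0430 to 0.221% of a library's total) was left out, and 27 names turned into dates were kept as they stand. Value columns left unused numbered 0.

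Values were tested as log2(value + 1) with limma 3.58.1 (R 4.3.3; mean-variance trend) over 24554 genes that reached 1 in 7 or more libraries, with age as the main term, the Benjamini-Hochberg adjusted p over all genes under 0.05 as the threshold. Differences understate the change of low genes. Libraries with Xist at 100 or more were called Xist-positive. Single members were also tested with exact two-sided permutations of the libraries (Python 3.11.15 with numpy 2.4.6 and pandas 2.3.3). Permutations not kept within the library sets can reach p = 0.000583 at the least. Those kept within the sets had 441 splits, or 315 without aged library 3, so their smallest possible p is larger. The fit was tested on simulated data. Alternatives covered the set term, fits within sets, scaling, pseudocount, filters, trend, library weights, threshold and leaving out each library. The members and gene lists were chosen with earlier results of these data known. All members are named; of each other deep layer list the 2 genes with the smallest p are named as values, and for likeness the gene with the highest r. The fit without aged library 3 within the Xist-positive set and for the interaction was chosen after the data were seen. So was the naming of Th, Emx1 and Slc17a6. One marker gene is not reported here. Gene spans come from GENCODE M21.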

Additional observations from a re-analysis of the deposited data

Results flagged for a closer look

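In 3 of the 18 combinations of member and age group, a single library stood apart from the other 6 by more than Dixon's 95% limit for 7 values (a gap over 0.568 of the range). The limit gives about 1 in 20 such combinations for normally distributed values. It was applied here to values not put on the log2 scale, so that rate may not hold. The share of all genes passing the same rule was not counted. Nxph4 in aged libraries was highest in library 3, at 643, where the other 6 ran up to 103. This is the library whose dopamine neuron markers were above those of all other libraries. Tle4 in aged libraries was highest in library 5, at 5427, against a median of 1912. Tle4 in young libraries was highest in library 3, at 4036, against a median of 1913.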

How the results depend on the processing

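Of the members, 0 were called by age in every setting tried except library weights, which called 2 of 9, Bcl11b (1.05, limma adjusted p = 0.0148) and Foxp2 (-1.01, limma adjusted p = 0.0299), where 53.1% of all genes (13048) were called. The count of all genes called by age, 1 in the main setting, was 2 with the set as a term, 60 with Xist-positive libraries alone (67 without aged 3), 5 with Xist-negative libraries alone, 8 with a pseudocount of 10, 16 with a mean of 100 or more, 52 with equal totals, 19 with equal upper quartiles, 0 without the mean-variance trend and 41 at an adjusted p under 0.1. It ran from 0 to 2381 when 1 library was left out with age alone, the highest without aged library 12, with 115 without young library 3 and 18 without young library 2, and from 0 to 3 with the set as a term. The count of members called between the sets ran from 1 to 3, the highest without aged library 3. The cause of these changes was not tested.

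Signs of single members turned as follows. Tle4 was -0.21 with the set as a term, -0.42 in Xist-positive libraries alone (-0.22 without aged 3) and -0.030 with equal upper quartiles, and ran from -0.45 to 0.19 when 1 library was left out. Bcl11b was -0.36 with the set as a term, -0.53 with Xist-positive libraries alone and -0.18 with Xist-negative ones, and ran from -0.53 to 0.57. Nr4a2 was 0.057 and Tbr1 0.67 with library weights, Tbr1 was 0.14 in Xist-positive libraries without aged 3, and they ran from -1.50 to 0.050 and from -1.24 to 0.38. Foxp2 ran from -0.73 to 0.19. Cplx3 was 0.080 in Xist-positive libraries alone, 0.77 in those without aged 3, and ran from -0.85 to 0.59. Etv1, Fezf2 and Nxph4 kept their sign in each setting tried. No paired analysis was possible because the aged and young libraries share only the number 3.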
